A study of Mus musculus with 12 samples.

Results

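The genes described here are 10 that move calcium in and out of the heart muscle cell with each beat: Ryr2, Atp2a2, Pln, Sln, Casq2, Trdn, Hrc, Jph2, Slc8a1 and Cacna1c. They were chosen by symbol, for what they encode, and all 10 were found in both deposited tables, each of which lists 46983 gene symbols. RNA came from mouse hearts (strain label BL6/C57) that were separated into a fraction labelled as cardiac interstitial cells (NonCM) and a fraction labelled as cardiomyocytes (CM). The Wls fl/fl mice were MCM/+ with Wls fl/fl, and the control mice were MCM/+, so both carried the MCM allele. MCM usually stands for MerCreMer, a Cre recombinase that acts after tamoxifen, and the promoter that drives it is not named in the labels. Wls encodes Wntless, the carrier that Wnt proteins need to leave the cell. All mice, controls included, received 3 doses of tamoxifen from postnatal day 1 to postnatal day 3 and an infarction at postnatal day 2, and were sampled 2 weeks after surgery, although the labels call the cells adult. Each of the 4 groups (NonCM Wls fl/fl, NonCM control, CM Wls fl/fl and CM control) holds 3 libraries, and the study states 3 hearts per condition.

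In a beating cardiomyocyte, calcium enters through L-type channels in the T-tubule membrane and opens ryanodine receptors on the facing sarcoplasmic reticulum, which release the larger calcium pulse that drives contraction. The muscle relaxes as a pump returns the calcium to the sarcoplasmic reticulum, under the brake of small membrane peptides, and as an exchanger in the surface membrane extrudes the rest. Shifts in the pump, its brake and the release channel are well known features of failing and of immature heart muscle.

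Some facts of the whole series bear on these genes. Libraries held 1160146 (NonCM control replicate 1) to 10281214 recovered reads, and the next lowest held 5171769. Wls, the targeted gene, had 91.6, 57.3 and 93.9 normalized counts in CM Wls fl/fl, against 243, 201 and 210 in CM control (log2 change -1.45, SE 0.17, adjusted p = 0.00389 by limma). In NonCM it had 356, 323 and 316 in Wls fl/fl, against 427, 374 and 407 in control (log2 change -0.28, SE 0.078, adjusted p = 0.0831 by limma). The NonCM adjusted p of Wls was 0.0333 by edgeR, 0.0368 by limma-voom and 0.227 by DESeq2. Replicate 3 of every group lay between replicates 1 and 2 in 46.9% to 59.2% of well-covered genes, against 15.1% to 28.9% for the other replicates, and it came close to a weighted mean of them. Results are therefore also given with replicates 1 and 2 only. The labels do not say which fractions came from the same heart, and the p-values take in no more than the scatter among these samples.

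The fraction labelled as interstitial held much cardiomyocyte RNA. A list of 24 cardiomyocyte markers that holds no calcium gene (among them Myh6, the main myosin of the adult mouse ventricle, and Tnnt2, a troponin) took 5.78% to 5.95% of reads in NonCM Wls fl/fl, 6.68% to 7.30% in NonCM control, 9.92% to 11.04% in CM Wls fl/fl and 10.004% to 10.2% in CM control. Col1a1, the collagen chain typical of fibroblasts, was at 392 ± 29.4 RPKM (reads per kilobase of exon, scaled to the reads of the library) in NonCM Wls fl/fl and 244 ± 6.15 in NonCM control, and at 33.4 ± 6.32 in CM Wls fl/fl and 28.4 ± 1.63 in CM control (SD, n = 3 each). The NonCM fraction was thus richer in a fibroblast gene and still rich in muscle genes. In such bulk libraries, fewer cells of a type and less RNA per cell cannot be told apart.

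Per length of exon, the reuptake pump and its brake were far above the rest. Levels are RPKM, and were compared without a test. Pln stood at 1287 ± 64.9 in NonCM Wls fl/fl, 1555 ± 85.1 in NonCM control, 2311 ± 17.0 in CM Wls fl/fl and 2424 ± 47.4 in CM control. Atp2a2 stood at 1278 ± 38.0 in NonCM Wls fl/fl, 1481 ± 82.9 in NonCM control, 2325 ± 53.4 in CM Wls fl/fl and 2289 ± 44.4 in CM control (SD, n = 3 each). Pln and Atp2a2 shared the top of the order, and their libraries overlapped in every group but CM control, where all 3 Pln levels were above all 3 Atp2a2 levels.

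The other genes followed in nearly the same order in every group. In NonCM control, Hrc was at 186 ± 17.999 and Casq2 at 182 ± 10.7, which overlapped, and Ryr2 was at 87.5 ± 1.03 and Jph2 at 84.8 ± 2.78, which overlapped too. Trdn (30.2 ± 3.03), Slc8a1 (17.3 ± 0.68) and Cacna1c (16.02 ± 0.78) came next in NonCM control, each clear of its neighbours. Neighbours that overlapped in the other groups were Casq2 with Hrc and Ryr2 with Jph2 in NonCM Wls fl/fl, and Ryr2 with Jph2 and Cacna1c with Slc8a1 in CM Wls fl/fl. Sln came last in all 4 groups, at 2.28 ± 2.04 in NonCM Wls fl/fl, 2.78 ± 0.43 in NonCM control, 1.68 ± 2.03 in CM Wls fl/fl and 1.24 ± 0.079 in CM control. The order thus ran from the pump and its brake, through the calcium-binding proteins and the release channel, down to the membrane channel and the exchanger.

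**Figure D1:**
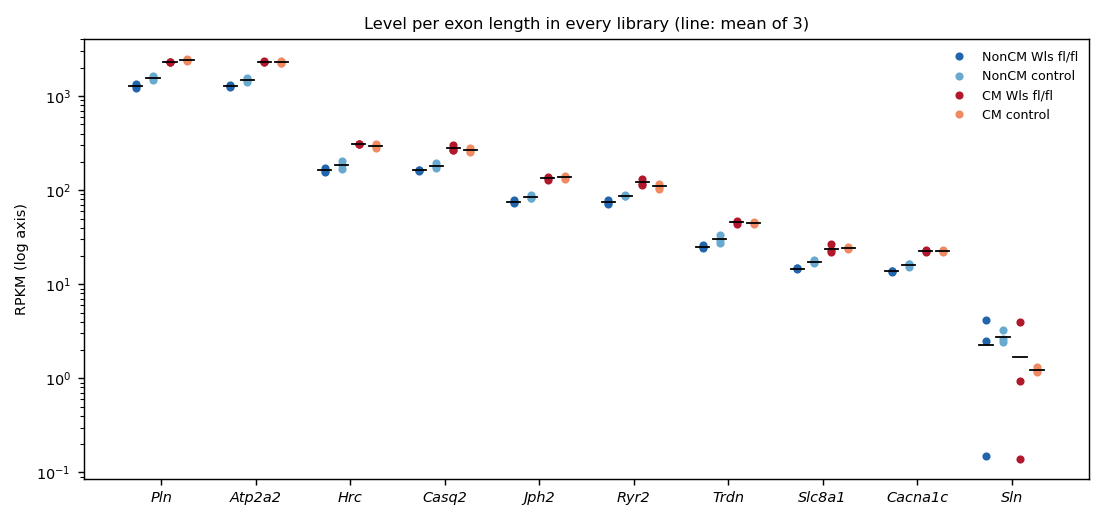
Level of each gene in every library, in RPKM on a log axis, with 1 dot per library and a line at the mean of 3. Pln and Atp2a2 lie between 1231 and 2457 in every library, Sln lies lowest, and for every gene but Sln the NonCM libraries lie below the CM libraries.

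Every gene but Sln was less abundant in NonCM than in CM. In control hearts the ratio of the NonCM to the CM share of reads had a median of 0.678 over these 9 genes, with a range of 0.617 (Jph2) to 0.799 (Ryr2), and the 24 cardiomyocyte markers had a median of 0.678 as well. In Wls fl/fl hearts the median ratio was 0.561 for the 9 genes and 0.554 for the markers. With TMM scaling over all 12 libraries the control medians were 0.574 for the 9 genes and 0.575 for the markers, so the scaling sets the size of the ratio. Sln went the other way in control hearts, at 3.67 CPM (counts scaled to library size) in NonCM and 1.63 CPM in CM, a ratio of 2.25. That ratio rests on 5 to 32 reads a library in NonCM control and 9 to 10 in CM control.

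In the NonCM fraction, 7 of the 10 genes fell in Wls fl/fl hearts by limma (adjusted p under 0.05 with Benjamini-Hochberg adjustment over 13271 genes), where 2.03% of all genes tested fell. They were Ryr2, Casq2, Trdn, Cacna1c, Atp2a2, Pln and Slc8a1, and their changes were alike in size, from -19.4% (Pln) to -12.4% (Casq2). In 9 of the 10 genes all 3 Wls fl/fl libraries were below all 3 control libraries, as they were in 12.6% of all genes tested. All 10 genes passed the filter on low values (a mean of 10 or more), and their median log2 change was -0.27, beside 0.017 over all genes tested, of which 8.997% changed by that much or more downwards. By edgeR on recovered reads 9 of the 10 fell, where 5.16% of all genes tested did.

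Among the release genes, Ryr2 encodes the ryanodine receptor of the heart, the channel through which the sarcoplasmic reticulum empties (chromosome 13, 11553102 to 12106945, minus strand, mm10). Its normalized counts were 14860, 13271 and 13555 in NonCM Wls fl/fl, against 16431, 17099 and 16807 in NonCM control. The highest Wls fl/fl library, replicate 1, lay below the lowest control library. The log2 change was -0.27 (SE 0.054, 95% interval -0.40 to -0.15, adjusted p = 0.0262 by limma).

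Casq2 encodes cardiac calsequestrin, which binds calcium inside the sarcoplasmic reticulum (chromosome 3, 102086415 to 102146514, plus strand). It had 2952, 2866 and 2880 normalized counts in NonCM Wls fl/fl, against 3404, 3224 and 3305 in NonCM control. The groups were tight and did not overlap, and the change was the smallest of the 7 (log2 -0.19, SE 0.044, adjusted p = 0.0435 by limma). Trdn encodes triadin, which anchors calsequestrin to the release channel (chromosome 10, 33080554 to 33476709, plus strand). It had 1611, 1500 and 1449 normalized counts in NonCM Wls fl/fl, against 2018, 1769 and 1839 in NonCM control. Again no library crossed over (log2 change -0.30, SE 0.064, adjusted p = 0.0331 by limma).

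The 2 other genes of the release site did not pass limma's threshold, though their groups did not overlap either. Hrc encodes the histidine-rich calcium-binding protein of the sarcoplasmic reticulum (chromosome 7, 45335290 to 45338974, plus strand), and had 2894, 2610 and 2652 normalized counts in NonCM Wls fl/fl, against 3370, 2951 and 3191 in NonCM control. Its log2 change was -0.22 (SE 0.063, adjusted p = 0.0852 by limma and 0.0357 by edgeR). Jph2 encodes junctophilin-2, which holds the T-tubule and the sarcoplasmic reticulum together (chromosome 2, 163336242 to 163397993, minus strand), and had 2057, 2050 and 2138 normalized counts in NonCM Wls fl/fl, against 2278, 2416 and 2511 in NonCM control. Its log2 change was -0.21 (SE 0.051, adjusted p = 0.0563 by limma and 0.0125 by edgeR).

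The entry channel fell with them. Cacna1c encodes the pore of the L-type calcium channel (chromosome 6, 118587240 to 119196418, minus strand). It had 1918, 1841 and 1894 normalized counts in NonCM Wls fl/fl, against 2062, 2362 and 2362 in NonCM control. The lowest control library, replicate 1, is the shallowest of the series, and it still lay above all 3 Wls fl/fl libraries. The log2 change was -0.26 (SE 0.061, adjusted p = 0.0469 by limma and 0.00398 by edgeR).

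Among the reuptake genes, Atp2a2 encodes SERCA2, the pump that refills the sarcoplasmic reticulum (chromosome 5, 122453513 to 122502225, minus strand). It had 52487, 49067 and 49537 normalized counts in NonCM Wls fl/fl, against 61250, 58221 and 60232 in NonCM control. The groups were apart by more than the range within either (log2 change -0.25, SE 0.053, adjusted p = 0.0332 by limma). Pln encodes phospholamban, which restrains the pump until it is phosphorylated (chromosome 10, 53337667 to 53345987, plus strand). It had 24501, 21980 and 22574 normalized counts in NonCM Wls fl/fl, against 29064, 27687 and 28852 in NonCM control. This was the largest of the 7 falls (log2 change -0.31, SE 0.055, adjusted p = 0.0183 by limma).

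Slc8a1 encodes the sodium-calcium exchanger, which carries calcium out across the surface membrane (chromosome 17, 81373105 to 81738377, minus strand). It had 1772, 1791 and 1795 normalized counts in NonCM Wls fl/fl, against 2184, 2148 and 2172 in NonCM control. The spread within each group was under 1% of its mean (0.704% in Wls fl/fl and 0.856% in control). NonCM control replicate 1 held only 394 reads of Slc8a1, too few to measure so small a spread. By limma Slc8a1 had the lowest p of the 10 (log2 change -0.28, SE 0.042, adjusted p = 0.0101 by limma). Its adjusted p was 0.000684 by DESeq2 and 0.000699 by limma-voom, where Pln was lower (6.52e-06 by DESeq2 and 0.000296 by limma-voom).

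Whether counting used strand is not given in the sources used here, and 3 of the 10 genes share exon bases with a gene on the other strand: Atp2a2 with Gm43361, Pln with Cep85l and Gm47644, and Slc8a1 with AC122399.1 and Gm11096. Reads of such pairs cannot be told apart without strand, so these 3 values are uncertain to that extent. Cep85l held 196 ± 18.3 normalized counts in NonCM Wls fl/fl and 193 ± 15.3 in NonCM control, and Gm43361 held 170 ± 5.62 in NonCM Wls fl/fl and 196 ± 37.5 in NonCM control (SD, n = 3 each). Both were far below Pln and Atp2a2, which does not show how shared reads were assigned. Values of Gm47644 and of the Slc8a1 partners AC122399.1 and Gm11096 are not given here.

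The 250 bases before the start of transcription were taken from RefSeq (GRCm38.p6, which has the coordinates of mm10) for 7 of the 10 genes, in 10 windows. The 3 shown belong to genes that fell together in NonCM: the brake on the pump, the exchanger and calsequestrin. Each of them holds a match to a motif marked below. The windows of Ryr2, Hrc and Jph2, not shown, hold no GATA, TATA or MEF2 match. Cacna1c, which fell too and is not shown, has a GATA match in its windows chr6:118757975-118758224 and chr6:119196410-119196659. Its window chr6:119108496-119108745 has none. Cacna1c and Jph2 have more than 1 window each, and the Jph2 windows overlap. Capitals mark matches, on either strand, to a GATA motif, a TATA box (TATAAA) or a MEF2 site. The GATA motif was searched as AGATAA, as well as with other outer letters: TGATAA was accepted, so was AGATAG, and TGATAG too. GATA and MEF2 factors are regulators of heart muscle genes. The Pln window stops where GENCODE begins the gene.
Pln, chr10:53337436-53337666, plus strand: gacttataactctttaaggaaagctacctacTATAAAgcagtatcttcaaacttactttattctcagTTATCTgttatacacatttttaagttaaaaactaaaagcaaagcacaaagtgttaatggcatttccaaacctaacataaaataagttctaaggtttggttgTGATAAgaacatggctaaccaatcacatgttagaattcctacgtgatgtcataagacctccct
Slc8a1, chr17:81738388-81738637, minus strand: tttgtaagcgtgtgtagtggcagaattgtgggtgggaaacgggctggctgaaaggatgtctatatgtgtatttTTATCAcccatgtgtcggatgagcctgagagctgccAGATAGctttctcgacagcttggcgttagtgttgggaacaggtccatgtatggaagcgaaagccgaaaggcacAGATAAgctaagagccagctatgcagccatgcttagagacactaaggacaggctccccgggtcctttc
Casq2, chr3:102086165-102086414, plus strand: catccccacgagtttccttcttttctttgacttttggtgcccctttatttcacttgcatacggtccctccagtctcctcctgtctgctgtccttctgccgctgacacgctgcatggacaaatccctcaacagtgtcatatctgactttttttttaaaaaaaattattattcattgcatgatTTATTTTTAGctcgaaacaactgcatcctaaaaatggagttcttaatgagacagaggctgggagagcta
A GATA motif was found in 4 of the 10 windows (those of Pln, Slc8a1 and Cacna1c), in 28.6% of 28 windows of the cardiomyocyte markers and in 26.5% of 32851 windows of all genes. These shares count windows and not genes. A TATA box was in 1 of the 10 (Pln, 219 bases before the start), 3.57% of the marker windows and 12.4% of all. A MEF2 site was in 1 of the 10, 14.3% of the marker windows and 2.92% of all. The E-box (CANNTG), not marked, was in 10 of the 10, 89.3% of the marker windows and 66.2% of all. M-CAT (CATTCC) was in 0 of the 10, 17.9% of the marker windows and 12.6% of all, and the CArG box in 0 of the 10, 17.9% of the marker windows and 1.47% of all. A match says only that the letters are there.

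**Figure D2:**
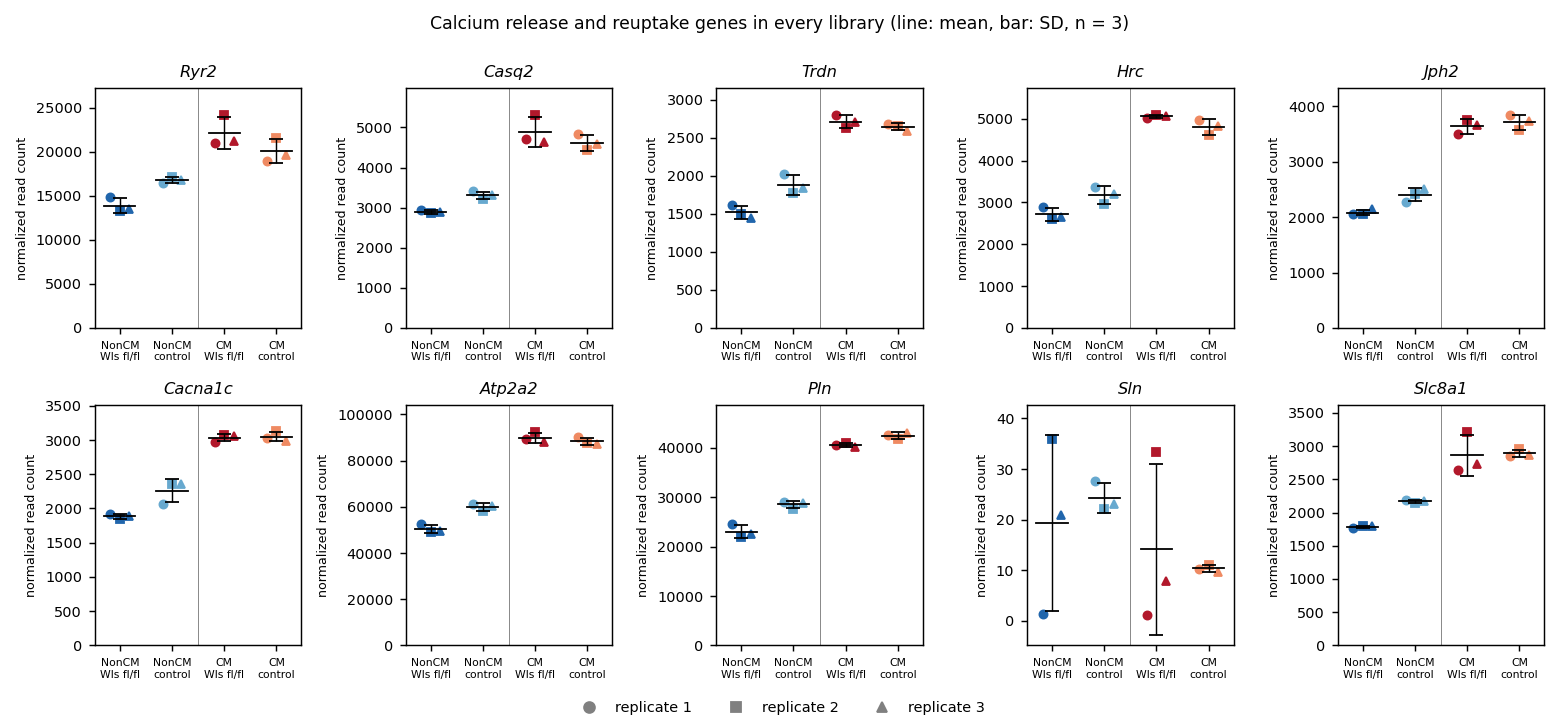
Normalized read count of each gene in every library, with the mean (line) and SD (bar) of 3 libraries, each panel with its own axis. Counts can be compared within a fraction only, since the 2 fractions were scaled apart. In NonCM the Wls fl/fl libraries lie below the control libraries for every gene but Sln, whose Wls fl/fl libraries spread from 1.27 to 35.9.

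Values of the whole cardiomyocyte marker list moved with these falls. In NonCM all 24 markers were lower in Wls fl/fl, 17 of them fell by limma (20 by edgeR), and their median log2 change was -0.27, with a range of -0.50 to -0.08. The 9 genes other than Sln, at -0.31 to -0.19, lay inside that range. Myh6 had 147396, 144925 and 146967 normalized counts in NonCM Wls fl/fl, against 191694, 182284 and 177774 in NonCM control. With each library divided by the sum of its 24 markers, 0 of the 10 genes changed by limma, with 0 at an unadjusted p under 0.05 (edgeR was not run on that scale), and the log2 changes of the 9 genes lay between -0.04 and 0.08, while the median of all genes moved to 0.29. Fibroblast markers went the other way: 7 of 9 rose by limma, with a median log2 change of 0.52, and they took 1.32% to 1.43% of reads in NonCM Wls fl/fl, against 0.905% to 0.919% in NonCM control. Macrophage markers took 0.156% to 0.164% in NonCM Wls fl/fl, against 0.109% to 0.133% in NonCM control, with 2 of 8 risen. Of all genes tested in NonCM, limma called 4.51% changed in either direction and 2.03% lower. The part of fibroblast and macrophage RNA in the falls was not tested.

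The calls in NonCM rested on the spread between 3 libraries a group. Without NonCM Wls fl/fl replicate 2, without NonCM Wls fl/fl replicate 3 or without NonCM control replicate 3, limma called 0 of the 10 genes, with 9 at an unadjusted p under 0.05 each time. With no library left out, 9 of the 10 and 2565 of all 13271 genes tested had such a p by limma. With replicates 1 and 2 only, limma and edgeR each called 0, with 6 and 7 genes at an unadjusted p under 0.05. Wls, the targeted gene, was not called in CM with replicates 1 and 2 only either (adjusted p = 0.0898 by limma and 0.0878 by edgeR). The changes themselves kept their size with replicates 1 and 2 only, from -0.19 (Casq2) to -0.29 (Pln) for the 9 genes.

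**Figure D3:**
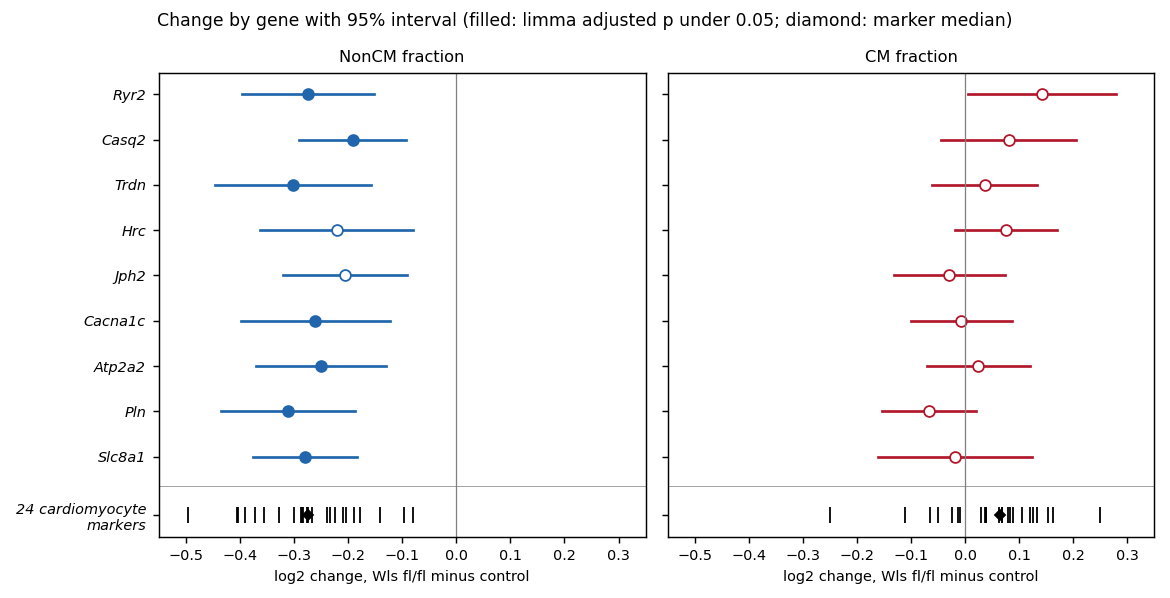
Log2 change, Wls fl/fl minus control, with its 95% interval for each gene but Sln in the NonCM and the CM fraction, filled where limma's adjusted p is under 0.05. Black ticks are the 24 cardiomyocyte markers and the diamond their median, which is -0.27 in NonCM and 0.07 in CM. The genes lie to the left of 0 in NonCM and on both sides of 0 in CM.

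In the CM fraction, where limma called Wls itself lower, 0 of the 10 genes changed by limma, where 0.0921% of 11944 genes tested did. Only Ryr2 had an unadjusted p under 0.05 by limma (0.0427), as had 1044 of the 11944 genes tested. EdgeR, DESeq2 and limma-voom called 0 too. Ryr2 had 20955, 24220 and 21236 normalized counts in CM Wls fl/fl, against 18932, 21546 and 19639 in CM control. The groups overlapped, and the log2 change was 0.14 (95% interval 0.0056 to 0.28, adjusted p = 0.56 by limma).

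The pump and the brake were close to control in CM. Atp2a2 had 89365, 92333 and 88042 normalized counts in CM Wls fl/fl, against 90022, 87681 and 87410 in CM control, which overlapped (log2 change 0.025, 95% interval -0.07 to 0.12). Pln had 40493, 40907 and 40251 in CM Wls fl/fl, against 42669, 41720 and 42991 in CM control. All 3 Wls fl/fl libraries were below all 3 control libraries, with a change of -4.49% (95% interval -10.1% to 1.44%, adjusted p = 0.675 by limma). Hrc was the reverse case, with 5023, 5089 and 5059 in CM Wls fl/fl, all above the 4972, 4599 and 4834 of CM control (log2 change 0.08, adjusted p = 0.653 by limma). Groups that do not overlap, in either direction, were seen in 15.0% of all genes tested in CM.

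The remaining genes of the CM fraction overlapped between genotypes. Casq2 averaged 4887 ± 377 normalized counts in CM Wls fl/fl and 4616 ± 196 in CM control, and Trdn 2712 ± 85.5 in CM Wls fl/fl and 2645 ± 46.7 in CM control. Jph2 averaged 3640 ± 134 in CM Wls fl/fl and 3714 ± 135 in CM control, and Cacna1c 3035 ± 56.9 in CM Wls fl/fl and 3050 ± 68.9 in CM control. Slc8a1 averaged 2864 ± 307 in CM Wls fl/fl and 2892 ± 56.4 in CM control (SD, n = 3 each). CM Wls fl/fl replicate 2 was the highest of its group for every one of the 10 genes but Trdn, and it stood well above the other replicates for Ryr2, Casq2 and Slc8a1. The 95% intervals of the log2 changes reached no further than -0.16 (Slc8a1) on the lower side and 0.28 (Ryr2) on the higher side for the 9 genes other than Sln. The cardiomyocyte markers did not change as called by limma in CM either (0 of 24, with 6 at an unadjusted p under 0.05 and 0 called by edgeR, median log2 change 0.07). Of all genes tested in CM, 1044 of 11944 had such an unadjusted p by limma.

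The difference between the fractions was tested as an interaction term in 1 edgeR fit of the 12 libraries. It was below 0 for all 10 genes, and 3 of them passed, where 1.13% of 12317 genes tested passed in that direction. The genotype change in NonCM minus that in CM was -0.43 on the log2 scale for Ryr2 (adjusted p = 0.0315), -0.29 for Atp2a2 (adjusted p = 0.0315) and -0.33 for Trdn (adjusted p = 0.0446). For the others the adjusted p ran from 0.0617 (Cacna1c, -0.28) to 0.842 (Sln, -0.66). Of the 24 cardiomyocyte markers 16 passed in the same direction, with a median of -0.33. The 3 calls were lost when libraries were scaled by their size alone (Ryr2 -0.37, adjusted p = 0.0703) and with replicates 1 and 2 only, with 8 and 4 genes at an unadjusted p under 0.05. They were also lost without CM control replicate 1, CM control replicate 3, CM Wls fl/fl replicate 3, NonCM control replicate 3, NonCM Wls fl/fl replicate 2 or NonCM Wls fl/fl replicate 3, each left out in turn, and without CM control replicate 2 a single call was left. Without NonCM control replicate 2 or NonCM Wls fl/fl replicate 1 the calls numbered 5.

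Sln behaved unlike the rest. It encodes sarcolipin, a small peptide that restrains the pump in atrial and in some skeletal muscle (chromosome 9, 53850164 to 53854560, plus strand). It had 1.27, 35.9 and 20.9 normalized counts in NonCM Wls fl/fl, against 27.7, 22.1 and 23.2 in NonCM control. In CM it had 1.17, 33.3 and 7.77 in Wls fl/fl, against 10.2, 11.1 and 9.73 in control. Control libraries were close to each other, though on few reads (5, 29 and 32 in NonCM control, and 10, 9 and 10 in CM control). In each fraction Wls fl/fl replicate 1 was near 0, with 2 reads in NonCM and 1 read in CM, and Wls fl/fl replicate 2 was the highest library of its fraction. No change was called in NonCM (log2 change -1.04, SE 0.86, adjusted p = 0.553 by limma), and without NonCM Wls fl/fl replicate 1 the log2 change was 0.17. No change was called in CM either (log2 change -0.38, SE 0.74, adjusted p = 0.922 by limma), where edgeR gave 0.39 and, without CM Wls fl/fl replicate 1, limma gave 0.61.

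Markers of atrial muscle followed the same libraries. Myl7, the atrial regulatory myosin light chain, had 15.9, 222 and 147 normalized counts in NonCM Wls fl/fl, against 222, 137 and 157 in NonCM control. In CM it had 12.9, 251 and 62.1 in Wls fl/fl, against 104, 56.8 and 92.4 in control. Wls fl/fl replicate 1 was again lowest and replicate 2 highest of its group in both fractions. Myl4, the atrial essential light chain, had 20.3, 166 and 122 in NonCM Wls fl/fl, against 133, 107 and 138 in NonCM control, and 14.1, 179 and 53.7 in CM Wls fl/fl, against 85.8, 72.8 and 83.7 in CM control. Mybphl had 1.27, 17.96 and 15.7 in NonCM Wls fl/fl, against 11.1, 12.2 and 11.6 in NonCM control, and 1.17, 21.9 and 4.53 in CM Wls fl/fl, against 8.17, 6.17 and 10.7 in CM control. Nppa, the atrial natriuretic peptide, had 153, 152 and 138 in NonCM Wls fl/fl, all below the 255, 252 and 228 of NonCM control. In CM it had 160, 325 and 206 in Wls fl/fl, against 255, 373 and 258 in control, and the groups overlapped. CM Wls fl/fl replicate 1 was thus lowest and replicate 2 highest of its group for Nppa too. Bmp10 was at 0 in all 6 control libraries and at most 2.08 in the Wls fl/fl libraries. The 5 atrial markers together took 0.00293% to 0.00863% of reads in NonCM Wls fl/fl, 0.00744% to 0.00965% in NonCM control, 0.00294% to 0.0122% in CM Wls fl/fl and 0.00701% to 0.00797% in CM control. The part of atrial tissue in the Sln values was not tested.

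**Figure D4:**
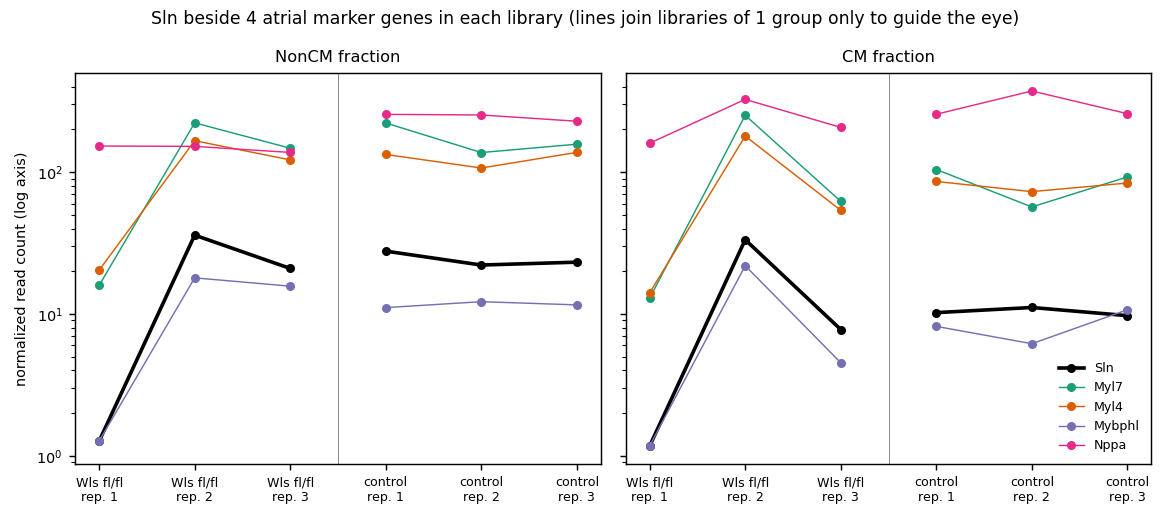
Normalized read counts of Sln and 4 atrial markers in each library, on a log axis, for the NonCM and the CM fraction, with lines that join the libraries of a group only to guide the eye. Sln, Myl7, Myl4 and Mybphl are lowest in Wls fl/fl replicate 1 of each fraction and highest of that group in replicate 2. Nppa varies less and follows that order in CM but not in NonCM.

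Genes with the most similar profiles over the 12 libraries were sought by the root mean square difference of centred log2 values among 11819 genes. For Sln these were Myl4 (0.278), Myl7 (0.450) and Gm5428 (0.510). For Ryr2 they were Stard7 (0.0613), Vdac2 (0.066) and Dmd (0.0689), for Atp2a2 they were Hadha (0.0208), Tnni3 (0.0235) and Decr1 (0.0251), and for Pln they were Ivd (0.0192), Apobec2 (0.0336) and Acss1 (0.0347). Hadha and Decr1 encode enzymes of fatty acid oxidation, and Tnni3 is cardiac troponin I, itself in the marker list. The difference between fractions is part of all these profiles. None of these 12 nearest genes was one of the 10.

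The balance between members was read as ratios of their levels, which do not depend on the scaling of a library. The ratio of Pln to Atp2a2 was 1.01 ± 0.021 in NonCM Wls fl/fl and 1.05 ± 0.0052 in NonCM control, and 0.994 ± 0.016 in CM Wls fl/fl and 1.06 ± 0.022 in CM control (SD, n = 3 each). It was lower in every Wls fl/fl library than in every control library of both fractions (exact permutation test, two-sided, p = 0.1 in each fraction, the smallest that 3 against 3 allows). The ratio of Cacna1c to Ryr2 was 0.187 ± 0.013 in CM Wls fl/fl and 0.207 ± 0.010 in CM control, again without overlap (exact permutation p = 0.1), and 0.185 ± 0.0080 in NonCM Wls fl/fl and 0.183 ± 0.011 in NonCM control, where the groups overlapped. These are 3 of 10 ratios tested, chosen after values were seen, and adjusted over the 10 the exact permutation p was 0.333 for each of the 3. The groups of the other 7 overlapped.

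Other genes of calcium handling were read from 9 lists with 100 genes, of which 97 were in the tables. In NonCM 82 of them were tested, 1 rose and 5 fell by limma (7.32%), where 4.51% of all genes tested changed in either direction. Their median log2 change was -0.07, and 52 of the 82 were lower in Wls fl/fl. EdgeR called 16, of which 2 rose and 14 fell, where 5.16% of all genes tested fell by edgeR. The lowest change by either tool was that of Jph1, a junctophilin, chosen here after its values were seen: it had 151, 104 and 130 normalized counts in NonCM Wls fl/fl, against 177, 205 and 185 in NonCM control (log2 change -0.57 with adjusted p = 0.0507 by limma, and -0.59 with adjusted p = 0.00511 by edgeR). In CM 80 were tested and 0 called by limma and by edgeR. Of the 80, 8 had an unadjusted p under 0.05 in limma, as had 1044 of all 11944 genes tested.

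Of the 5 falls called by limma in NonCM, the largest was that of Cmya5, which encodes myospryn, a protein of the Z-disc and the junction between T-tubule and sarcoplasmic reticulum. It had 4014, 3690 and 3847 normalized counts in NonCM Wls fl/fl, against 5937, 5403 and 5619 in NonCM control (log2 change -0.55, SE 0.053, adjusted p = 0.00138 by limma). It was called whichever library was left out, but not with replicates 1 and 2 only (adjusted p = 0.202 by limma), and with libraries scaled to the cardiomyocyte markers its log2 change was -0.28 (adjusted p = 0.00302 by limma). In CM it had 6298, 6767 and 6252 in Wls fl/fl, all below the 7191, 7071 and 7135 of CM control (log2 change -0.15, adjusted p = 0.399 by limma). Cmya5 therefore lay lower in the Wls fl/fl libraries of both fractions, and passed the test in NonCM.

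The other 4 falls in NonCM were smaller, and none of them was called with libraries scaled to the cardiomyocyte markers, where their log2 changes were -0.06 (Rcan2), 0.0084 (Adcy5), 0.027 (S100a1) and 0.08 (Prkaca), with adjusted p-values of 0.367, 0.908, 0.679 and 0.167 by limma. Rcan2, an inhibitor of the calcium-activated phosphatase calcineurin, averaged 1438 ± 107 normalized counts in NonCM Wls fl/fl and 1812 ± 28.4 in NonCM control (log2 change -0.34, adjusted p = 0.0183 by limma). Adcy5, a main adenylyl cyclase of the heart, averaged 628 ± 14.6 in NonCM Wls fl/fl and 756 ± 25.7 in NonCM control (log2 change -0.27, adjusted p = 0.0297). S100a1, a calcium sensor that acts on the pump and the release channel, averaged 988 ± 54.1 in NonCM Wls fl/fl and 1172 ± 16.6 in NonCM control (log2 change -0.25, adjusted p = 0.0379). Prkaca, the catalytic subunit of the kinase that phosphorylates phospholamban, averaged 1457 ± 20.1 in NonCM Wls fl/fl and 1669 ± 36.9 in NonCM control (log2 change -0.20, adjusted p = 0.0450; SD, n = 3 each, limma throughout).

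Itpr1 was the single listed gene that rose by limma. It encodes an inositol trisphosphate receptor, a calcium release channel of many cell types. It had 1126, 1080 and 1131 normalized counts in NonCM Wls fl/fl, against 937, 942 and 990 in NonCM control (log2 change 0.22, SE 0.051, adjusted p = 0.0462 by limma). In CM its log2 change was -0.06 (adjusted p = 0.881 by limma), and its interaction term is not given here. Of the 6 genes called, Cmya5 alone was called without NonCM Wls fl/fl replicate 2, without NonCM Wls fl/fl replicate 3 and without NonCM control replicate 3.

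By role, the medians of the 9 lists in NonCM ran from -0.25 to 0.09, and none of them was tested as a list. The list of T-tubule and dyad structure had a median log2 change of -0.25 with 6 of 7 lower, that of the pump's partners -0.11 with 9 of 9 lower, and that of beta-adrenergic control -0.13 with 9 of 11 lower. Release channel partners had a median of -0.09 with 11 of 18 lower, and channel subunits -0.09 with 7 of 11 lower. Calcium export genes had a median of 0.09 with 0 of 3 lower, mitochondrial calcium uptake 0.0073 with 3 of 6 lower, store-operated entry 0.04 with 2 of 7 lower, and calcineurin with NFAT 0.01 with 5 of 10 lower. Over all genes tested in NonCM the median was 0.017 and 46.8% were lower.

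**Figure D5:**
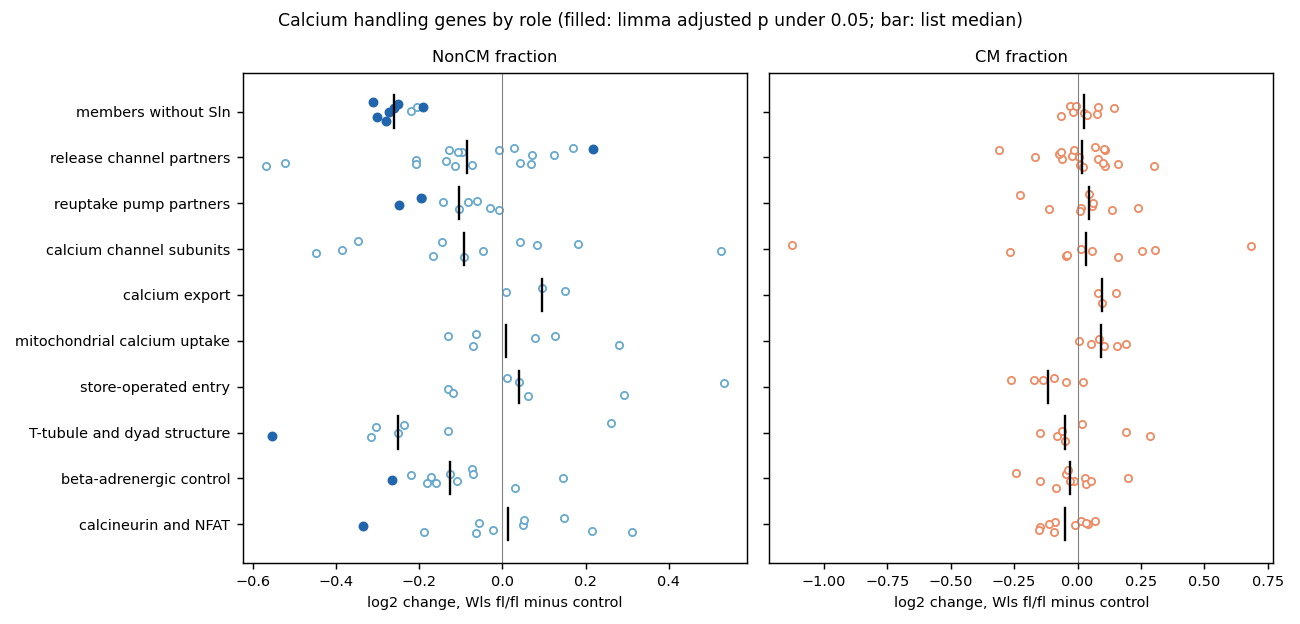
Log2 change, Wls fl/fl minus control, of the 9 genes other than Sln and of 9 lists of other calcium handling genes in the NonCM and the CM fraction, with 1 dot per gene, filled where limma's adjusted p is under 0.05, and a bar at the list's median. In NonCM the 9 genes lie between -0.31 and -0.19, while most lists spread on both sides of 0.

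In NonCM the authors' deposited table lists Pln at a log2 fold change of -0.31 (standard error 0.057, adjusted p = 6.22e-06) and Hrc at -0.21 (standard error 0.070, adjusted p = 0.0438), the highest adjusted p of the 9 genes other than Sln. For Sln the authors' deposited table lists -0.32 in NonCM and 0.44 in CM, the second of opposite sign to limma's -0.38. In CM the authors' deposited table lists an adjusted p of 0.9996 for all 9 genes with a value, and none for Sln.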

How the data were processed

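Bulk RNA-seq was done on 12 libraries of mouse heart, grouped by the genotype and cell fraction in the labels, with replicates numbered in accession order. The submitters' processing notes name STAR, DESeq2 and mm10, and do not state an annotation, a counting tool or a strand setting. In each fraction's table the deposited signal values are normalized read counts, that is, the authors' gene counts over a size factor for each library. This was checked on the values, which were whole multiples of 1 read (100% at a tolerance of 0.01), so reads could be recovered. Per the file headers the tables also hold log2 fold changes by the authors with their errors, a test statistic (a score), p-values and adjusted p-values.

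Each fraction was fitted alone with limma 3.58.1 in R 4.3.3 (trended eBayes) on log2(value + 1), for genes whose mean was 10 or more, with Benjamini-Hochberg adjustment over all of them and a threshold of 0.05. Fold changes are on that scale, on which a library near 0 weighs heavily for a low gene such as Sln. The interaction was fitted with edgeR 4.0.16 (quasi-likelihood, TMM, mean CPM of 2 or more) on recovered reads of 12 libraries without a block. Levels used the exon union of GENCODE M21 on GRCm38. Alternatives were TMM and upper-quartile scaling, scaling to 24 cardiomyocyte markers, their score as covariate, other filters (none, 50) and pseudocounts (0.5, 5), DESeq2 1.42.0, edgeR, limma-voom, an adjusted p of 0.1, each library left out, and replicates 1 and 2 only. That last one by edgeR, and an interaction fit with a replicate block that pairs NonCM and CM libraries by their place in the numbering, were chosen after seeing the data. Scripts were tested on simulated data.

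Named are the 10 genes, Wls, the called genes of the calcium handling lists, the 3 nearest profiles of Ryr2, Atp2a2, Pln and Sln, and markers set beside a result. The genes, the lists and the tests were chosen with earlier results of these data known. Of 11 marker lists, those not described above had 0 calls by limma in CM, and in NonCM limma called 1 atrial, 1 endothelial and 1 immature cardiomyocyte marker lower and 0 of the conduction system, skeletal muscle, smooth muscle, Schwann cell and neuron and red blood cell lists.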

Additional observations from a re-analysis of the deposited data

Results flagged for a closer look

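The genotype change differed between fractions, by the interaction in edgeR over all 12 libraries, for 3 of the 10 genes. In that direction, lower in NonCM, 1.13% of 12317 genes tested passed. The 3 calls were lost with libraries scaled by their size alone and with replicates 1 and 2 only. The change in NonCM minus that in CM was -0.427 on the log2 scale for Ryr2 (-0.29 in NonCM and 0.14 in CM), -0.285 for Atp2a2 (-0.26 in NonCM and 0.023 in CM) and -0.33 for Trdn (-0.29 in NonCM and 0.035 in CM). The adjusted p was 0.0315, 0.0315 and 0.0446, and it ran over the 12 left-out libraries from 0.0207 to 0.108 for Ryr2, from 0.0206 to 0.114 for Atp2a2 and from 0.028 to 0.145 for Trdn. The markers of cardiomyocytes moved in the same way, with 16 of 24 called lower, and their part in these results was not tested. The fractions may come from the same hearts, and this fit treats the 12 libraries as independent.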

How the results depend on the processing

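In NonCM the number of the 10 genes called (7) was 4 with TMM scaling or no filter, and 0 with libraries scaled to cardiomyocyte markers, with the marker score as covariate and with replicates 1 and 2 only (limma and edgeR). It was 9 by DESeq2, by edgeR and by limma-voom, and 8 with upper-quartile scaling or a mean of 50 or more. It ran from 0 to 8 with a library left out. In CM it was 0 throughout. With replicates 1 and 2 only, Wls itself was not called in CM (adjusted p = 0.0898 by limma and 0.0878 by edgeR). Marker shares of reads in NonCM did not overlap between genotypes (5.78% to 5.95% against 6.68% to 7.30%). The covariate fit can therefore hardly separate genotype from marker score, and a count of 0 there decides little. Interaction calls (3) numbered 6 by limma-voom and at an adjusted p under 0.1, 0 with library size only and with replicates 1 and 2 only, and 0 to 5 with a library left out. Other calcium handling genes called in NonCM (6) numbered 3 (TMM), 11 (mean of 50 or more), 16 (edgeR), 17 (limma-voom) and 12 (adjusted p under 0.1). They numbered 0 with the covariate and with replicates 1 and 2 only (limma and edgeR), and 1 to 19 with a library left out. Scaled to markers they numbered 34, of which 33 rose and 1, Cmya5, fell. On that scale the median log2 change of all genes in NonCM was 0.29, and the share of all genes called is not given here. In CM (0) they numbered 0 to 1, the 1 being Cacna1h without CM control replicate 2. Signs turned in NonCM with scaling to markers for Ryr2 (0.00198), Atp2a2 (0.0251), Casq2 (0.0844), Hrc (0.0543), Jph2 (0.0698) and Cacna1c (0.0147), which by construction sets changes against the markers, and with the covariate for Atp2a2 (0.0647), Pln (0.118), Casq2 (0.0128), Trdn (0.22) and Hrc (0.378). In CM, where none was called, they turned for Atp2a2 (-0.00776 scaled to markers, -0.00253 covariate), Casq2 (-0.0138 covariate), Slc8a1 (0.00685 and 0.0085, replicates 1 and 2, limma and edgeR), Cacna1c (0.00147, TMM) and Sln (0.44 DESeq2, 0.392 edgeR, 0.746 edgeR on replicates 1 and 2). With a library left out, log2 changes ran in CM from -0.424 to 0.614 (Sln), -0.0575 to 0.000292 (Jph2), -0.105 to 0.036 (Slc8a1) and -0.0209 to 0.011 (Cacna1c), in NonCM from -1.84 to 0.174 (Sln), and the Sln interaction from -1.53 to 0.662. The cause was not tested. The labels do not state that libraries of the fractions are paired, but library numbers of NonCM and CM run in parallel. Deviations from group means (3154 genes) correlated at 0.0981 to 0.576 within such pairs, over 0.1 in 5 of 6, and at -0.608 to 0.245 otherwise, and each of the 6 NonCM libraries correlated best with its own number, a hint from the data and not from the design. With these pairs as a replicate block, 8 of the 10 genes (all but Sln and Jph2) had a called interaction, in place of 3, and so had 24 of 24 cardiomyocyte markers, all lower in NonCM. Of all genes 3.68% were called lower and 185 of 12317 higher. In NonCM control replicate 1, 1 read is worth 5.54 normalized counts, so low genes such as Sln are coarse there.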
